A study of Mus musculus with 9 samples.

Results

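The genes described here are 52 genes of mitosis and chromosome segregation, taken by gene symbol from a list and not by a threshold on their values. The list itself was chosen with earlier results of these data known, so it is not independent of them. All 52 were found among the 25468 genes of the file, as 124 of its 55361 transcript entries, and the level of each gene is the sum of FPKM (fragments scaled by transcript length and by the mapped total) over its transcripts. Of the 52 genes, 48 reached a mean of 1 FPKM over the 9 libraries and were tested. Melk, Espl1, Kif18b and Cdca5 stayed below that mean, so their values are given without a test.

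The libraries were bulk RNA sequencing of wild-type mouse hearts, in 3 groups of 3: hearts 1 day after acute myocardial infarction (AMI), hearts 7 days after AMI, and hearts of sham-operated mice. The labels give no day for the sham hearts, so the same shams served as the control for both times. Strain, age, sex, the method of infarction, the part of the heart taken and any pooling of animals are not given in the labels. The 9 libraries were all wild type by their titles, and no other genotype was analysed here.

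Mitosis is driven by cyclin-dependent kinase 1 with its B-type cyclins. Kinesin motors and microtubule-binding proteins then build a spindle, kinetochores attach the chromosomes to it, and a checkpoint holds back the anaphase-promoting complex until all are attached. Most cardiomyocytes of the adult heart do not divide, while fibroblasts, endothelial cells and immune cells can. Many genes of this machinery are transcribed together late in the cell cycle, through a promoter element called the cell cycle genes homology region (CHR), with the core letters TTTGAA, to which complexes of MuvB proteins with B-MYB and FOXM1 or with DREAM repressor subunits bind. CCAAT boxes bound by NF-Y often lie near that element.

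The promoters of the 52 genes were examined first. RefSeq windows on the mouse assembly GRCm38.p6, from 250 bases before to 50 after a gene's start, were available for 45 of the genes and not for Pbk, Kif20a, Tpx2, Spc24, Aurkb, Smc4 and Cdca2. TTTGAA, searched on both strands, was present in 36 of the 45 genes (80.0%). The same letters were in 20.2% of all 27025 genes with such a window and in 14.3% of the 9657 of them that were tested in the hearts. Windows are shown for the members with the largest day 1 log2 fold changes among those that have a window, and for Cenpa and Ncapd2, which did not pass the test at day 1. Each runs 5′ to 3′ on the strand of the gene, from 130 bases before to 30 after the start, and capitals mark TTTGAA or, on the other strand, TTCAAA.
Prc1, chr7:80294321-80294480, plus strand: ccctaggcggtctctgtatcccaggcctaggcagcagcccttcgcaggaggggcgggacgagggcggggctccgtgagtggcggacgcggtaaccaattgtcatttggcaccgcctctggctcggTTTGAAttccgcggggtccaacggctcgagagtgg
Cdk1, chr10:69352883-69353042, minus strand: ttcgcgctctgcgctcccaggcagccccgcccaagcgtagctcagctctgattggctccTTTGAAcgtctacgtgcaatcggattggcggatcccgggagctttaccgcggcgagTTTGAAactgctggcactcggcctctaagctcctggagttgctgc
Cdc20, chr4:118437314-118437473, minus strand: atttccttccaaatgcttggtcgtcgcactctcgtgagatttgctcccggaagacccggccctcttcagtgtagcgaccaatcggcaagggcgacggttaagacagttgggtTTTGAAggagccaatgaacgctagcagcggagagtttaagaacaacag
Ube2c, chr2:164769799-164769958, plus strand: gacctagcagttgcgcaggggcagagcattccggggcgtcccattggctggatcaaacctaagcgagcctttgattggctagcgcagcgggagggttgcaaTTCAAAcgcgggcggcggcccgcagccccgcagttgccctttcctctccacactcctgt
Ccnb1, chr13:100786457-100786616, minus strand: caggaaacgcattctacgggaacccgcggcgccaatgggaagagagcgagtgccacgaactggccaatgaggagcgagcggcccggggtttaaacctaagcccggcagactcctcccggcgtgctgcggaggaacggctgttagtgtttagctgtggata
Cenpa, chr5:30666756-30666915, plus strand: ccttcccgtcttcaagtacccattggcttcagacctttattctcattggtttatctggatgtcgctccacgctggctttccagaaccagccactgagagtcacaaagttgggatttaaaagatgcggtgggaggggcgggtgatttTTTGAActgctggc
Ncapd2, chr6:125191557-125191716, minus strand: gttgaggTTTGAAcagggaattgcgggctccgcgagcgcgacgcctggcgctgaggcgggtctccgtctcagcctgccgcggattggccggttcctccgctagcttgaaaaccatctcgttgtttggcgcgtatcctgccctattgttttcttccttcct

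Cdk1 has 2 copies of TTTGAA in its window, and Ccnb1, its partner cyclin, has none of these letters. Cenpa and Ncapd2 hold the letters. Among the genes shown, the presence of a match alone therefore did not separate those that passed the test at day 1. The match lies at 17 in Cenpa and -123 in Ncapd2, against -5 in Prc1, -18 in Cdc20 and -29 in Ube2c. Kif2c, which passed at day 1, has its only match at -103. Spc24 has no window, so only 2 tested members that did not pass at day 1 could be read. That is too few to compare positions. Within 100 bases before to 30 after the start, a match was found in 66.7% of the 45 mitosis genes, against 8.54% of all genes with a window and 5.18% of those tested. CCAAT on either strand was found in 71.1% of the mitosis genes, against 41.1% of all genes and 42.5% of those tested, and at least 2 copies were found in 48.9% of the mitosis genes, against 13.3% of all genes. Both elements together were present in 64.4% of the mitosis genes, against 7.97% of all genes and 5.76% of those tested. DNA replication genes carried TTTGAA in 14.3% and CCAAT in 66.7% of 21 genes, and the core subunits of the anaphase-promoting complex carried them in 15.4% and 30.8% of 13. Over the other lists, TTTGAA ran from 0.0% of 5 G1 genes to 66.7% of 3 condensin II genes. It was in 46.2% of 13 other outer kinetochore and checkpoint genes and 31.2% of 16 inner kinetochore genes. CCAAT reached 75.0% of those 16 and 76.9% of 13 other regulators of mitotic entry and exit, above the mitosis genes. A match is a run of letters and not a measured binding site.

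**Figure D1:**
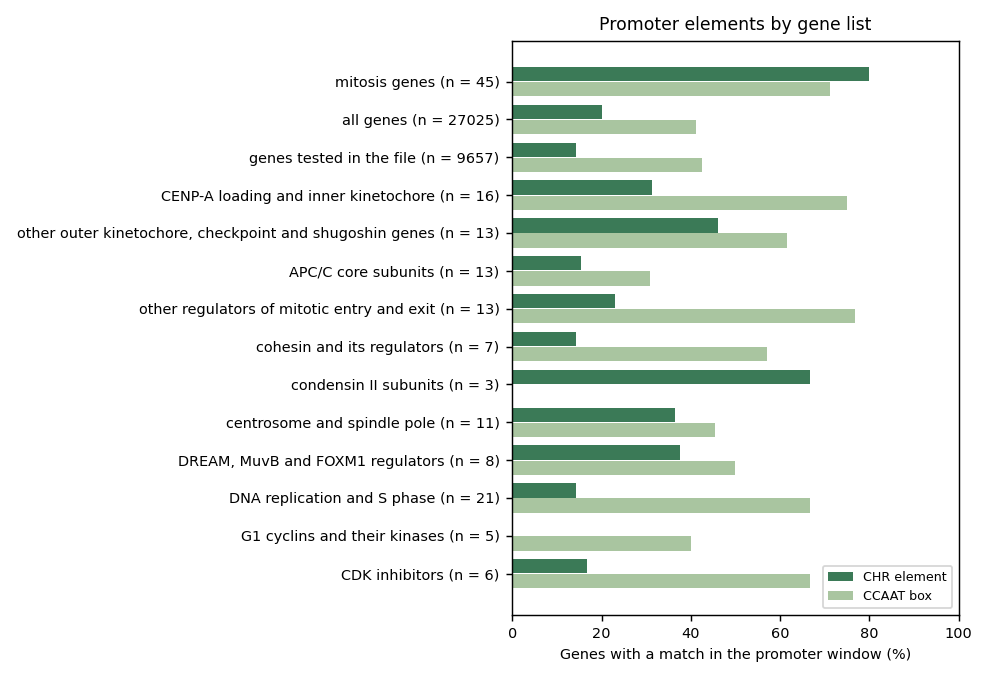
Share of genes (%, horizontal axis) with a CHR element (TTTGAA, dark bars) or a CCAAT box (light bars) on either strand of the RefSeq window from 250 bases before to 50 after the start, for the mitosis genes, all genes, the genes tested in the hearts and other gene lists (n, genes with a window). The CHR bar of the mitosis genes reaches 80.0%, against 20.2% for all genes.

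The hearts were checked on markers before the mitosis genes were read. Summed FPKM of 7 cardiomyocyte genes was 12826 to 16106 at day 1, 9418 to 16119 at day 7 and 21166 to 22191 in sham, so the tissue label holds in every library. FPKM totals per library ran from 521643 to 792632, of which mitochondrially encoded genes took 24.4% to 39.8%. The values read here are FPKM and not counts, so the depth behind a value is unknown. Day 7 replicate 2 stood apart, with 72.8 summed FPKM of 5 T cell markers, against 13.7 or less in the other libraries, and 71.6 of 3 skeletal muscle markers, against 0.984 or less. Airway epithelium markers summed to 1661 FPKM in day 1 replicate 2 and 202 in sham replicate 1, against 16.8 or less elsewhere. Atrial muscle markers summed to 5026, 2084 and 89.8 FPKM at day 1, 1936, 319 and 503 at day 7, and 1656, 33.0 and 73.5 in sham, and fat cell markers to 451 in sham replicate 1, against 4.10 and 2.11 in the other shams; the part of either in the results was not tested.

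At day 1, of the 48 genes tested, 45 rose and 0 fell, with Cenpa, Spc24 and Ncapd2 not passing the test (limma on log2(FPKM + 1), adjusted p under 0.05). Over all 13514 genes tested, 13.4% rose and 14.7% fell. The filter was a mean over all 9 libraries, so genes low in sham could pass it through the infarct groups. Of the 52 genes, 30 had a sham mean under 1 FPKM. Without the filter, 47 of 52 rose at day 1 and 16 at day 7, against 6.03% and 6.32% of all genes. The median log2 fold change of the 48 genes was 1.34, against -0.01 over all genes tested, and the range was 0.14 to 2.25. At least a doubling on that scale, a log2 fold change of 1 or more, was called for 40 of them, against 3.91% of all genes tested. In 51 of the 52 genes every day 1 library lay above every sham library, Cenpa being the exception, and of the tested genes this held for 47 of 48, against 22.5% of all genes tested. The ratio of mean FPKM, day 1 over sham, had a median of 4.35 over the 52 genes, with Cenpa lowest at 1.11 and Ccnb1 highest at 9.93.

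At day 7 most of these genes were still above sham. Of the 48 genes, 38 rose and 0 fell, while 15.7% of all genes tested rose and 17.3% fell. The median log2 fold change was 0.81, against -0.02 over all genes, and 15 of the 48 were called with a log2 fold change of 1 or more, against 3.53% of all genes. Every day 7 library lay above every sham library in 42 of the 52 genes, and in 39 of the 48 tested, against 25% of all genes tested. The ratio of mean FPKM, day 7 over sham, had a median of 2.74, from 1.11 for Spc24 to 4.52 for Ccnb1. The 10 genes that did not pass were Mad2l1, Kif20b, Kif23, Kif2c, Kif4, Cenpa, Spc24, Ncapg, Ncapd2 and Cdca3.

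The count at day 7 rested more on single libraries than the count at day 1. Leaving out sham replicate 2 left 13 genes called at day 7, leaving out sham replicate 1 left 17 and leaving out day 7 replicate 2 left 19, while 8.32%, 10.5% and 11.8% of all genes tested rose in those fits. With each of the other libraries left out, 28 to 38 were called, while 9.46% to 16.8% of all genes tested rose. The 13 genes that were called at day 7 whichever library was left out were Cdk1, Plk1, Pbk, Ttk, Cdc20, Prc1, Tpx2, Nuf2, Anln, Ect2, Racgap1, Ncaph and Mki67. At day 1, 42 of the 45 were called whichever library was left out, and Mad2l1, Smc4 and Cdca3 were not. Without day 1 replicate 2 and sham replicate 1, the libraries with airway markers, 17 genes were called at day 1 and 10 at day 7, with median log2 fold changes of 1.30 and 0.79; in that fit 1.89% of all genes tested rose at day 1 and 7.98% at day 7.

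**Figure D2:**
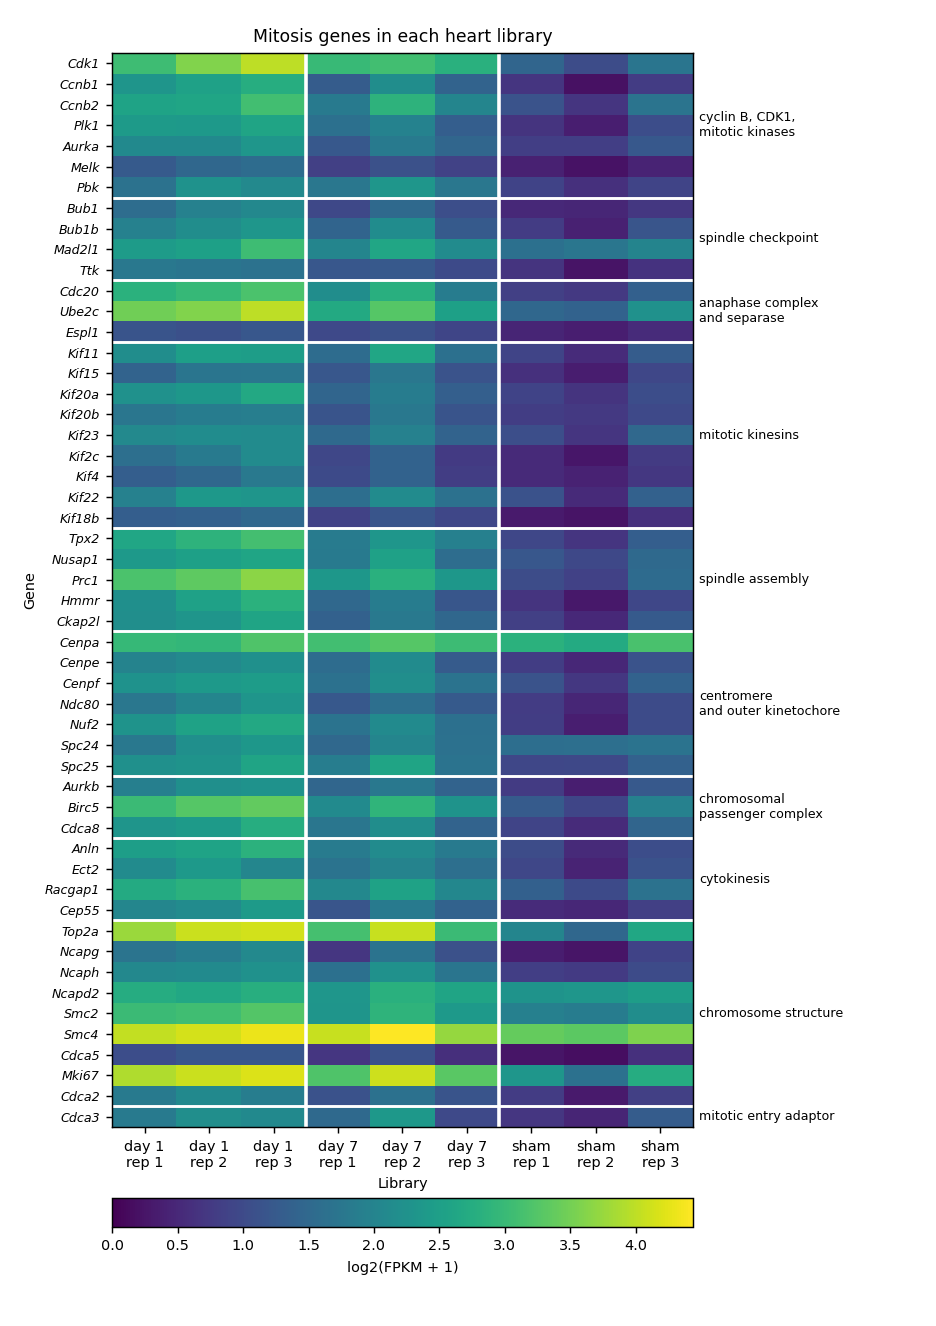
Level of each of the 52 mitosis genes (rows, grouped by role) in each of the 9 heart libraries (columns), as log2(FPKM + 1) on the colour scale. The 3 day 1 libraries are brighter than the 3 shams in nearly every row, and day 7 replicate 2 is brighter than the other day 7 libraries throughout.

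Summed over the 52 genes, the libraries held 226.8, 263.1 and 305.6 FPKM at day 1, 142.6, 232.5 and 135.8 at day 7, and 69.2, 51.5 and 99.96 in sham. The genes shared their high and low libraries. Day 7 replicate 2 held the highest value of its group for 52 of 52 genes, sham replicate 3 for 51, and day 1 replicate 3 for 43, while sham replicate 2 held the lowest for 47 and day 1 replicate 1 the lowest for 45. In bulk tissue, more cells of a dividing type and more of this RNA per cell cannot be told apart.

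Mitosis is entered through Cdk1 and the B-type cyclins, and all 6 tested genes of this group rose at both times. Cdk1, the kinase, had 7.34, 11.1 and 14.8 FPKM at day 1, 6.98, 7.50 and 6.06 at day 7, and 1.74, 1.05 and 2.30 in sham. Neither infarct group overlapped sham, and day 1 replicate 3 was the highest library of all 9. The log2 fold change of Cdk1 was 2.14 ± 0.24 at day 1 (SE; limma adjusted p = 0.00207) and 1.56 ± 0.24 at day 7 (adjusted p = 0.00458), the largest at day 7 among the 48 genes.
Ccnb1, cyclin B1, averaged 4.86 ± 0.91 FPKM at day 1, 2.22 ± 1.15 at day 7 and 0.490 ± 0.307 in sham (SD, n = 3 each), and Ccnb2, cyclin B2, averaged 5.86 ± 1.47, 3.95 ± 2.06 and 1.35 ± 0.85 FPKM in the same order of groups. Plk1 and Aurka, kinases of mitotic entry and spindle poles, had log2 fold changes of 1.77 ± 0.20 and 1.22 ± 0.18 at day 1, and of 0.95 ± 0.20 and 0.54 ± 0.18 at day 7 (SE). Pbk, a mitotic protein kinase, had the smallest difference between the times on the log2(FPKM + 1) scale, with a log2 fold change of 1.21 ± 0.20 at day 1 and 1.14 ± 0.20 at day 7. Melk, a kinase of dividing cells and one of the 4 genes not tested, had 1.38, 1.80 and 1.96 FPKM at day 1, 0.798, 1.14 and 0.845 at day 7, and 0.324, 0.166 and 0.366 in sham. Its 3 groups did not overlap.

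The spindle checkpoint genes were raised at day 1 in 4 of 4 and at day 7 in 3 of 4. Bub1b, the checkpoint kinase-like protein BubR1, had 2.85, 3.51 and 4.01 FPKM at day 1, 1.68, 3.49 and 1.37 at day 7, and 0.720, 0.332 and 1.25 in sham. The lower day 7 libraries lay just above the highest sham, and day 7 replicate 2 lay within the range of day 1. Its log2 fold change was 1.36 ± 0.27 at day 1 and 0.82 ± 0.27 at day 7 (SE; limma adjusted p = 0.00903 and 0.0433). Mad2l1, the checkpoint protein MAD2, was the most abundant of the 4 per length, with 4.44, 4.78 and 7.35 FPKM at day 1, 3.08, 5.16 and 3.43 at day 7, and 2.09, 2.35 and 2.98 in sham. No infarct library reached down into the sham range, but at day 7 the log2 fold change was 0.48 ± 0.21 and did not pass (adjusted p = 0.103). Bub1 and Ttk, the other checkpoint kinases, had log2 fold changes of 1.30 ± 0.19 and 1.21 ± 0.15 at day 1, and of 0.61 ± 0.19 and 0.63 ± 0.15 at day 7.

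Exit from mitosis was represented by Cdc20, Ube2c and Espl1. Cdc20, the activator that the checkpoint holds back, had 6.15, 6.83 and 8.01 FPKM at day 1, 3.51, 5.98 and 2.64 at day 7, and 0.793, 0.657 and 1.58 in sham. The 3 groups did not overlap, and the log2 fold change was 2.01 ± 0.25 at day 1 and 1.30 ± 0.25 at day 7 (SE; limma adjusted p = 0.00258 and 0.00846). Ube2c, the ubiquitin-conjugating enzyme of the anaphase-promoting complex, had 10.1, 11.1 and 15.03 FPKM at day 1, 5.44, 8.604 and 4.71 at day 7, and 1.78, 1.61 and 3.73 in sham. Again no values were shared between groups, with log2 fold changes of 1.99 ± 0.27 and 1.12 ± 0.27. Ube2c has an exon that overlaps the skeletal muscle gene Tnnc2 on the other strand, and the labels do not say whether strand was used in counting. Espl1, the protease separase that opens cohesin rings at anaphase, was not tested; it had 1.23, 1.11 and 1.31 FPKM at day 1, 0.978, 1.15 and 0.897 at day 7, and 0.376, 0.291 and 0.452 in sham. Its day 1 and day 7 libraries overlapped, and both groups lay above sham.

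Of the mitotic kinesins, 8 of 8 tested rose at day 1 and 4 of 8 at day 7. Kif11, the motor that pushes spindle poles apart, had the highest mean of them, with 3.52, 4.66 and 4.51 FPKM at day 1, 1.98, 5.18 and 2.11 at day 7, and 0.886, 0.465 and 1.44 in sham. Day 7 replicate 2 exceeded every day 1 library, while the other day 7 libraries lay between day 1 and sham. Its log2 fold change was 1.46 ± 0.29 at day 1 and 1.03 ± 0.29 at day 7 (SE; limma adjusted p = 0.00949 and 0.0283). Kif20a, a motor of the central spindle, had the largest day 1 log2 fold change of FPKM + 1 among the kinesins tested, with 3.72, 4.07 and 5.41 FPKM at day 1, 1.72, 2.63 and 1.54 at day 7, and 0.859, 0.586 and 1.08 in sham. Its groups did not overlap, and its log2 fold change was 1.55 ± 0.18 at day 1 and 0.68 ± 0.18 at day 7. Kif15, which helps Kif11 to keep the poles apart, and Kif22, a motor on chromosome arms, also rose at both times, by 0.99 ± 0.21 and 1.20 ± 0.24 at day 1 and by 0.73 ± 0.21 and 0.79 ± 0.24 at day 7 on the log2 scale. Kif20b, Kif23, Kif2c and Kif4 rose at day 1, by 0.97 to 1.34 on the log2 scale, with Kif2c having the highest ratio of mean FPKM over sham among the kinesins, 5.90, against 5.24 for Kif20a, and at day 7 had log2 fold changes of 0.50 to 0.55 that did not pass (adjusted p from 0.052 to 0.0978). Kif20b is a motor of cytokinesis, Kif23 a subunit of centralspindlin, Kif2c a microtubule depolymerase at centromeres and Kif4 a chromosome-bound motor. Kif18b, a motor that limits the length of astral microtubules, was not tested and had 1.498, 1.61 and 1.84 FPKM at day 1, 0.826, 1.26 and 0.916 at day 7, and 0.251, 0.175 and 0.524 in sham, with no overlap between the groups.

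Spindle assembly genes rose in 5 of 5 at both times. Prc1, which bundles the microtubules of the central spindle, had 8.05, 9.08 and 11.6 FPKM at day 1, 4.10, 6.02 and 4.10 at day 7, and 1.03, 0.812 and 1.94 in sham. All 3 groups stood clear of each other, and the log2 fold change at day 1, 2.25 ± 0.21, was the largest among the 48 genes (SE; limma adjusted p = 0.0011); at day 7 it was 1.36 ± 0.21 (adjusted p = 0.0046). Tpx2, which nucleates spindle microtubules and activates Aurora A, averaged 6.37 ± 1.25 FPKM at day 1, 3.14 ± 0.76 at day 7 and 1.01 ± 0.45 in sham (SD, n = 3 each). Nusap1 and Ckap2l, microtubule-binding proteins of the spindle, had log2 fold changes of 1.27 ± 0.24 and 1.50 ± 0.20 at day 1, and of 0.76 ± 0.24 and 0.68 ± 0.20 at day 7. Hmmr, a spindle-associated protein also known as a receptor for hyaluronan, is described with the comparison of the days.

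The centromere and outer kinetochore group was divided. Cenpe, Cenpf, Ndc80, Nuf2 and Spc25 rose at both times, and Cenpa and Spc24 passed at neither. Nuf2, a subunit of the NDC80 complex that grips microtubules, had 3.84, 4.85 and 5.39 FPKM at day 1, 2.24, 3.34 and 2.11 at day 7, and 0.751, 0.297 and 1.03 in sham. Its groups did not overlap, with log2 fold changes of 1.77 ± 0.20 and 1.08 ± 0.20 (SE; limma adjusted p = 0.00207 at day 1 and 0.00741 at day 7). Spc24, a partner of Nuf2 in the same complex, had 2.44, 3.61 and 4.07 FPKM at day 1, 1.83, 3.05 and 2.16 at day 7, and 2.03, 2.06 and 2.25 in sham. Every day 1 library was above every sham, by a little in replicate 1, and day 7 and sham overlapped, with log2 fold changes of 0.47 ± 0.17 (adjusted p = 0.071) and 0.09 ± 0.17 (adjusted p = 0.715). The sham mean of Spc24, 2.11 ± 0.12 FPKM, was above those of its complex partners Spc25, 1.16 ± 0.39, Ndc80, 0.716 ± 0.317, and Nuf2, 0.693 ± 0.370 (SD, n = 3 each).

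Cenpa, the histone H3 variant that marks centromeres, had 6.89, 6.62 and 8.24 FPKM at day 1, 7.56, 8.67 and 7.28 at day 7, and 6.10, 5.53 and 7.94 in sham. The groups overlapped at both times, and the log2 fold changes were 0.14 ± 0.13 and 0.24 ± 0.13 (SE; limma adjusted p = 0.456 and 0.186). In sham, Cenpa had a mean of 6.52 ± 1.26 FPKM, where the median of the 52 genes was 0.850 FPKM and only Smc4, at 9.80 ± 1.03, was higher. Cenpe, a kinetochore kinesin, averaged 3.30 ± 0.36 FPKM at day 1, 2.26 ± 1.03 at day 7 and 0.787 ± 0.401 in sham, and Cenpf, a large kinetochore protein, averaged 4.17 ± 0.34, 2.65 ± 0.80 and 1.16 ± 0.49 FPKM in that order of groups.

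The chromosomal passenger complex, which corrects faulty attachments, rose in 3 of 3 genes at both times. Birc5, its subunit survivin, had 7.16, 8.61 and 9.29 FPKM at day 1, 3.38, 6.46 and 3.88 at day 7, and 1.43, 0.901 and 2.84 in sham. No library of one group lay within the range of another, and the log2 fold change was 1.84 ± 0.27 at day 1 and 1.06 ± 0.27 at day 7 (SE; limma adjusted p = 0.0039 and 0.0209). Aurkb, the kinase of the complex, and Cdca8, its subunit borealin, had log2 fold changes of 1.33 ± 0.22 and 1.53 ± 0.26 at day 1, and of 0.75 ± 0.22 and 0.81 ± 0.26 at day 7.

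Cytokinesis genes rose in 4 of 4 at both times. Anln, the contractile ring protein anillin, had 4.62, 4.98 and 6.19 FPKM at day 1, 2.61, 3.39 and 2.498 at day 7, and 1.06, 0.445 and 1.08 in sham. The groups were separate, with log2 fold changes of 1.76 ± 0.17 and 1.05 ± 0.17 (SE; limma adjusted p = 0.00122 at day 1 and 0.00508 at day 7). Racgap1, a subunit of centralspindlin with Kif23, had 5.54, 6.16 and 7.81 FPKM at day 1, 3.18, 4.86 and 3.17 at day 7, and 1.56, 1.00 and 2.20 in sham. These groups were also separate, and the log2 fold changes were 1.55 ± 0.20 and 0.88 ± 0.20. Ect2, which activates RhoA at the cleavage plane, and Cep55, which recruits the machinery of abscission, had log2 fold changes of 1.35 ± 0.19 and 1.58 ± 0.19 at day 1, and of 0.93 ± 0.19 and 0.83 ± 0.19 at day 7.

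Genes of chromosome structure rose in 7 of 8 at day 1 and in 6 of 8 at day 7. Top2a, the topoisomerase that untangles sister chromatids, had 12.7, 15.8 and 16.5 FPKM at day 1, 7.73, 15.6 and 7.14 at day 7, and 3.04, 1.79 and 5.21 in sham. Day 7 replicate 2 lay within the day 1 range, and both infarct groups lay above sham. Its log2 fold change was 1.95 ± 0.33 at day 1 and 1.36 ± 0.33 at day 7 (SE; limma adjusted p = 0.00588 and 0.0172). Smc4, an ATPase subunit of both condensins, had the highest mean of the 52 genes in each group, with 15.3, 16.7 and 18.7 FPKM at day 1, 15.7, 20.7 and 12.3 at day 7, and 9.45, 8.99 and 10.97 in sham. Day 1 and day 7 overlapped and both were above sham, with log2 fold changes of 0.73 ± 0.17 and 0.65 ± 0.17 (adjusted p = 0.0154 and 0.0209).

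The condensin I subunits differed in how far they moved. Ncapd2 had 5.75, 5.35 and 5.90 FPKM at day 1, 4.01, 6.06 and 5.05 at day 7, and 3.86, 4.05 and 4.55 in sham. Day 1 lay above sham and day 7 overlapped it, with log2 fold changes of 0.37 ± 0.12 (limma adjusted p = 0.0524) and 0.22 ± 0.12 (adjusted p = 0.201). Ncaph averaged 3.43 ± 0.26 FPKM at day 1, 2.71 ± 0.87 at day 7 and 0.828 ± 0.165 in sham (SD, n = 3 each) and rose at both times, while Ncapg, at 2.72 ± 0.49, 1.33 ± 0.82 and 0.446 ± 0.363 FPKM, rose at day 1 and did not pass at day 7 (adjusted p = 0.0852). Smc2, the partner ATPase of Smc4, had log2 fold changes of 1.13 ± 0.16 and 0.54 ± 0.16 (SE). Mki67, which codes for the proliferation antigen Ki-67 on the surface of mitotic chromosomes, averaged 15.8 ± 1.7 FPKM at day 1, 11.1 ± 4.3 at day 7 and 3.97 ± 1.79 in sham. Cdca2, a phosphatase-targeting protein of chromatin, had log2 fold changes of 1.28 ± 0.19 and 0.66 ± 0.19. Cdca5, the cohesin regulator sororin and the lowest of the 52 genes, had 1.07, 1.28 and 1.27 FPKM at day 1, 0.627, 1.15 and 0.508 at day 7, and 0.197, 0.118 and 0.523 in sham; its day 7 replicate 3 lay within the sham range. Cdca3, a trigger of mitotic entry, had 2.55, 3.55 and 3.31 FPKM at day 1, 1.86, 4.15 and 0.981 at day 7, and 0.619, 0.380 and 1.44 in sham. Its day 7 libraries ran across the ranges of both other groups, and its log2 fold change was 1.23 ± 0.34 at day 1 (adjusted p = 0.028) and 0.81 ± 0.34 at day 7 (adjusted p = 0.0955).

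**Figure D3:**
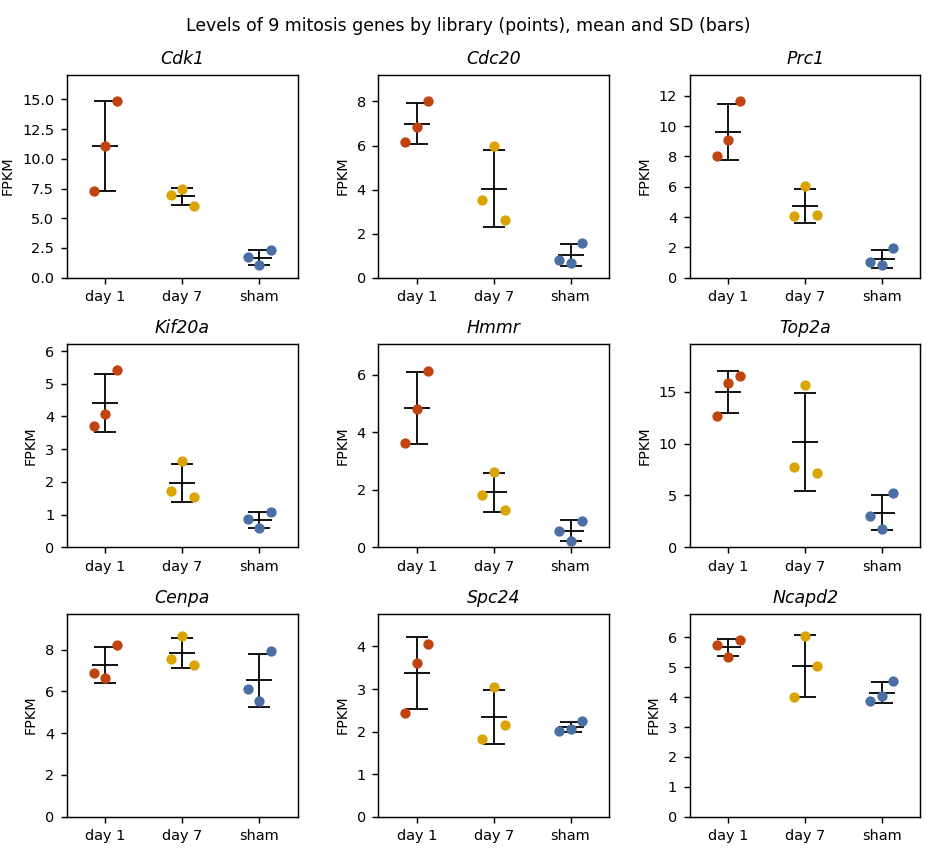
FPKM (vertical axes, each from 0) of 9 mitosis genes in each library (points), with the group mean and SD (black bars, n = 3), at day 1 and day 7 after infarction and in sham hearts. The upper 6 genes are above sham at both times, and Cenpa, Spc24 and Ncapd2, in the bottom row, are the tested genes that did not pass at day 1.

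Day 7 was then compared with day 1 directly, to ask whether the level had changed between the times. Of the 48 genes, 0 rose and 2 fell, Kif20a and Hmmr, while 2.71% of all genes tested rose and 2.14% fell. Kif20a had 1.72, 2.63 and 1.54 FPKM at day 7, against 3.72, 4.07 and 5.41 at day 1, and a log2 fold change of -0.87 ± 0.18 (SE; limma adjusted p = 0.0337). Hmmr had 1.83, 2.63 and 1.28 FPKM at day 7, against 3.62, 4.81 and 6.12 at day 1, a log2 fold change of -1.01 ± 0.24 (adjusted p = 0.0473). The sham libraries of Hmmr were at 0.579, 0.222 and 0.928 FPKM, so its 3 groups were separate, and it rose against sham by 1.89 ± 0.24 at day 1 and 0.88 ± 0.24 at day 7. Under several alternatives these 2 calls were lost: 0 genes were called with a pseudocount of 0.1 or in a fit of only these groups. Without day 7 replicate 2 both were kept among 12 genes called, while 1.18% of all genes tested fell.

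The other 46 genes did not pass, although 47 of the 48 estimates were below 0 and 29 had an unadjusted limma p under 0.05. Over all 13514 genes tested, 3132 had an unadjusted limma p under 0.05 in this comparison, in either direction. The median log2 fold change of the 48 genes was -0.58, against -0.01 over all genes tested, with Cenpa, at 0.10 ± 0.13, the only one above 0. Every day 7 library lay below every day 1 library in 29 of the 52 genes, and in 27 of the 48 tested, against 14.1% of all genes tested. The ratio of mean FPKM, day 7 over day 1, had a median of 0.612, from 0.394 for Hmmr to 1.08 for Cenpa. Among the 45 genes that rose at day 1, the difference of mean FPKM from sham that was left at day 7 had a median of 44.8% of that at day 1, from 27.8% for Kif2c to 93.2% for Pbk.

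**Figure D4:**
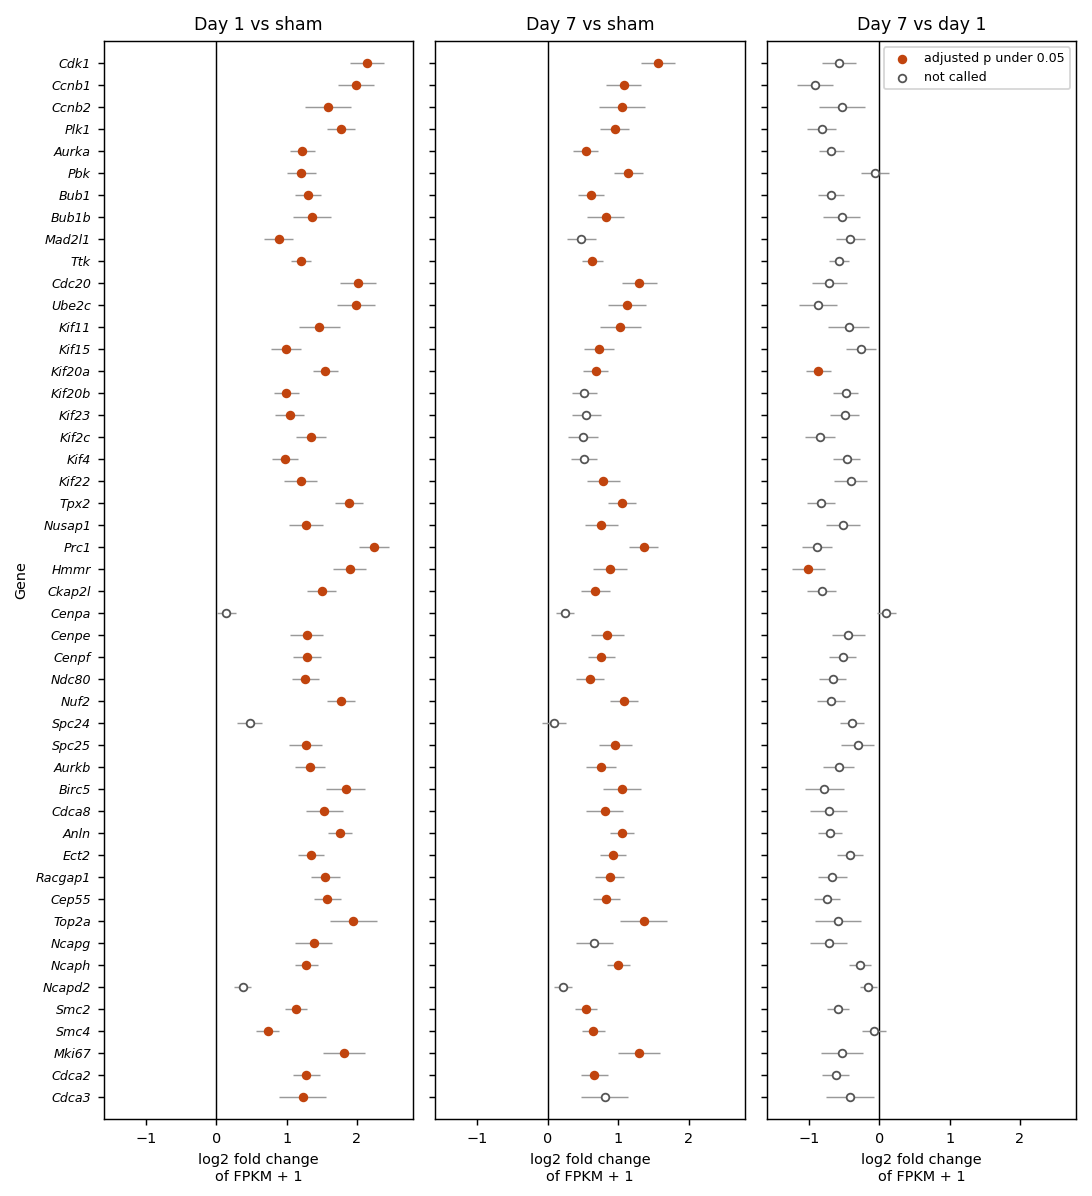
Log2 fold change of FPKM + 1 (horizontal axes) for each of the 48 tested mitosis genes at day 1 against sham, at day 7 against sham and at day 7 against day 1, with the SE from limma as a line. Filled points have an adjusted p under 0.05; the points lie at 0.14 to 2.25 in the first panel, 0.09 to 1.56 in the second and -1.01 to 0.10 in the third.

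Beside the mitosis genes, markers of several cell types differed between the groups, and their part in the result was not tested. Neutrophil markers passed as higher at day 1 in 5 of 5 and at day 7 in 0 of 5, and summed to 116 to 310 FPKM at day 1, 28.3 to 69.1 at day 7 and 47.0 to 63.8 in sham. Monocyte and macrophage markers passed as higher in 5 of 8 at day 1 and 3 of 8 at day 7, with sums of 649 to 1115, 811 to 1054 and 386 to 666 FPKM in that order of groups. Fibroblast markers passed in 3 of 6 at day 1 and 4 of 6 at day 7, with sums of 896 to 1120, 2139 to 3046 and 825 to 936 FPKM. Erythroid markers passed in 2 of 5 and 5 of 5 tested, and summed to 584 to 2256, 949 to 2433 and 255 to 724 FPKM. Cardiomyocyte markers were lower than sham in 2 of 7 at day 1 and 5 of 7 at day 7, and no endothelial marker of 6 passed at either time. The 4 genes of dividing granulocyte precursors of the bone marrow stayed below a mean of 1 FPKM, with sums of 0.553 to 1.25 at day 1, 1.16 to 1.49 at day 7 and 0.0767 to 0.238 in sham, and 3 of them were listed at 0 in at least 1 library. Day 7 replicate 2, which was highest of its group for all 52 mitosis genes, also held the highest sums of its group for neutrophil markers, 69.1 FPKM, and for monocyte and macrophage markers, 1054 FPKM. Day 1 replicate 3, highest for 43 mitosis genes, held 308 and 884 FPKM of these markers, against 310.3 and 1115 in day 1 replicate 2. Sham replicate 3, highest for 51, held 59.3 and 666 FPKM, against 63.8 and 559.97 in sham replicate 1. Fibroblast, erythroid and T cell markers summed to 2139, 949 and 72.8 FPKM in day 7 replicate 2, the group's lowest, lowest and highest. In day 1 replicate 3 they summed to 896, 2256 and 1.85 FPKM, the lowest, highest and lowest of its group. In sham replicate 3 they summed to 936, 268 and 3.52 FPKM, the highest, middle and highest of its group.

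Other genes of the cell cycle were read from 11 lists that share no gene with the 52. DNA replication and S phase genes had the highest share of genes that rose at day 1 among these lists. Of 23 tested, 21 rose and 1 fell at day 1, and 14 rose and 0 fell at day 7, with median log2 fold changes of 0.79 and 0.44. When FPKM were rescaled to a common total (TPM), which moved the median of all genes to 0.23 at day 1 and 0.30 at day 7, 21 rose at day 7. With quantile normalization 19 rose at day 1 and 11 at day 7. Rrm2, a subunit of ribonucleotide reductase, averaged 6.71 ± 1.15 FPKM at day 1, 5.44 ± 1.91 at day 7 and 1.46 ± 0.35 in sham (SD, n = 3 each). Mcm6, of the replicative helicase, averaged 8.42 ± 1.72, 6.20 ± 1.17 and 2.40 ± 0.47 FPKM, and Uhrf1, which maintains DNA methylation at replication forks, averaged 6.85 ± 1.00, 4.53 ± 1.41 and 1.92 ± 0.37 FPKM in that order of groups. Gmnn, the replication licensing inhibitor geminin, went the other way at day 1, with 20.5 ± 5.3 FPKM at day 1, 28.0 ± 7.3 at day 7 and 37.3 ± 6.2 in sham, a log2 fold change of -0.84 ± 0.23 at day 1 (SE; limma adjusted p = 0.0283).

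Of 13 tested regulators of mitotic entry and exit outside the 52, 8 rose at day 1 and 8 at day 7, with 0 falls, and with quantile normalization 7 and 4 rose. Cks2, a small CDK-binding subunit, averaged 13.2 ± 4.3 FPKM at day 1, 7.27 ± 1.64 at day 7 and 2.16 ± 0.99 in sham (SD, n = 3 each), Ccna2, cyclin A2, averaged 9.17 ± 2.17, 5.18 ± 1.84 and 1.96 ± 0.74, and Cks1b, the paralog of Cks2, averaged 13.3 ± 3.8, 9.03 ± 2.16 and 5.01 ± 1.22 FPKM. Of 10 tested genes of centromere loading and the inner kinetochore, 7 rose at day 1 and 4 at day 7. With TPM 8 rose at each time, and with quantile normalization 4 rose at day 1, and 2 rose and 1 fell at day 7. The inner kinetochore genes Cenpn and Cenpl rose at day 1, by 0.71 ± 0.15 and 0.65 ± 0.19 on the log2 scale (SE), and Cenpl did not pass with quantile normalization (limma adjusted p = 0.0714). Of 14 tested genes of the outer kinetochore, checkpoint and shugoshins, 6 rose and 1 fell at day 1, and 5 rose and 1 fell at day 7. With TPM 8 rose and 0 fell at each time, and with quantile normalization 3 rose and 1 fell at day 7. Knl1, the kinetochore scaffold for checkpoint kinases, had log2 fold changes of 1.35 ± 0.27 and 0.89 ± 0.27, Spdl1, a kinetochore adaptor of dynein, of 1.22 ± 0.20 and 0.54 ± 0.20, and Incenp, the scaffold of the chromosomal passenger complex, of 1.15 ± 0.17 and 0.69 ± 0.17. Spdl1 did not pass at day 7 (limma adjusted p = 0.0625).

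Most core subunits of the anaphase-promoting complex, 11 of 14 at each time, did not pass the test. Their summed FPKM was 363 to 405 at day 1, 367 to 381 at day 7 and 460 to 500 in sham. Anapc13 alone, at means of 158, 146 and 248 FPKM in that order of groups, made up a large part of each sum. Of 14 core subunits, 1 rose and 2 fell at day 1, and 0 rose and 3 fell at day 7, with a median log2 fold change of -0.11 at day 1 and -0.05 at day 7. With TPM, 3 rose and 1 fell at day 1, 1 rose and 1 fell at day 7, and the medians of the subunits were 0.14 and 0.30, against 0.23 and 0.30 over all genes. Anapc13 averaged 158 ± 14 FPKM at day 1, 146 ± 11 at day 7 and 248 ± 17 in sham (SD, n = 3 each), Cdc26 averaged 18.1 ± 3.2, 21.1 ± 0.9 and 24.1 ± 0.2 FPKM, and Anapc2 averaged 20.2 ± 0.66, 19.6 ± 1.75 and 16.02 ± 1.58 FPKM in that order. Anapc13 and Cdc26 fell and Anapc2 rose at day 1, and with TPM Cdc26 did not pass (limma adjusted p = 0.439). Of 12 cohesin genes, 1 rose at day 1, the acetyltransferase Esco2 with a log2 fold change of 0.92 ± 0.21 (SE), and 2 rose at day 7; after removal of mitochondrially encoded genes and rescaling, 7 rose at day 1 and 2 at day 7. Of 3 tested condensin II subunits, 1 rose at both times, Ncapg2, by 1.03 ± 0.15 at day 1 and 0.63 ± 0.15 at day 7. Among all genes tested, 13.4% rose at day 1 and 15.7% at day 7.

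Centrosome and spindle pole genes rose in 5 of 11 at day 1 and in 4 of 11 at day 7, when 1 fell. Tacc3, which stabilises spindle fibres, had log2 fold changes of 1.46 ± 0.23 and 0.81 ± 0.23 (SE), Aspm, a protein of spindle poles, of 1.16 ± 0.17 and 0.68 ± 0.17, and Sass6, which forms the cartwheel of new centrioles, of 0.87 ± 0.15 and 0.24 ± 0.15. Sass6 did not pass at day 7 against sham (limma adjusted p = 0.221) and fell at day 7 against day 1 (adjusted p = 0.0465). Of 11 tested DREAM, MuvB and FOXM1 regulators, which act at the CHR element, 4 rose at day 1 and 2 at day 7, and with TPM 5 and 6 rose. Foxm1, the activator of late cell cycle genes, averaged 3.62 ± 0.45 FPKM at day 1, 2.58 ± 0.98 at day 7 and 0.891 ± 0.176 in sham (SD, n = 3 each). Rbl1, the repressor subunit p107, had log2 fold changes of 0.58 ± 0.12 and 0.31 ± 0.12, and Tfdp1, the E2F partner DP1, of 0.51 ± 0.10 and 0.41 ± 0.10. Rbl1 did not pass at day 7 (limma adjusted p = 0.0829).

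Of 7 tested G1 cyclins and kinases, 3 rose at day 1 and 4 at day 7, and with TPM 5 and 6 rose. Ccne2, cyclin E2, averaged 3.45 ± 0.26 FPKM at day 1, 2.14 ± 0.06 at day 7 and 1.84 ± 0.15 in sham (SD, n = 3 each), so on the FPKM scale its rise was called at day 1 and not at day 7 (adjusted p = 0.225), and it fell at day 7 against day 1 (limma adjusted p = 0.0223). Cdk4 and Cdk6, the partners of D-type cyclins, rose at both times, by 0.54 ± 0.10 and 0.49 ± 0.15 at day 1 and by 0.42 ± 0.10 and 0.75 ± 0.15 at day 7 on the log2 scale (SE), although Cdk6 did not pass at day 1 with quantile normalization (limma adjusted p = 0.0561). Of 6 tested CDK inhibitors, 0 rose and 1 fell at day 1, and 1 rose and 2 fell at day 7. Cdkn1c, the inhibitor p57, averaged 4.56 ± 0.54 FPKM at day 1, 5.46 ± 0.71 at day 7 and 8.58 ± 1.07 in sham and fell at both times, although with TPM it passed at neither (limma adjusted p = 0.054 and 0.277).

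**Figure D5:**
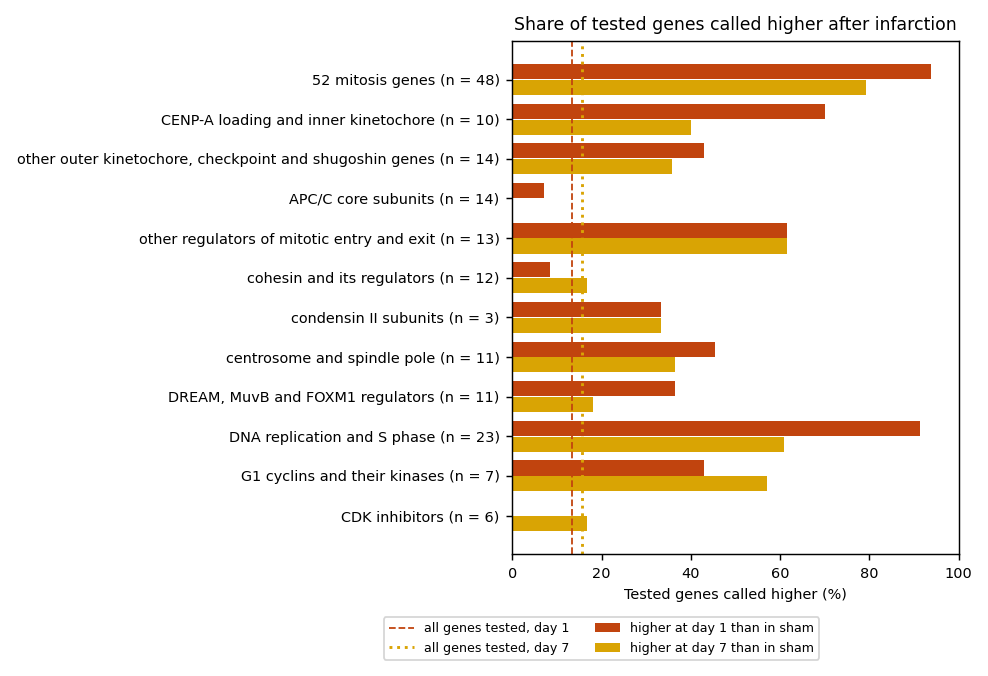
Share of the tested genes of each list (%, horizontal axis; n, genes tested) that passed as higher at day 1 (red bars) and at day 7 (yellow bars) than in sham, with the share among all 13514 genes tested as a dashed line for day 1 (13.4%) and a dotted line for day 7 (15.7%). The mitosis genes and the DNA replication genes have the longest day 1 bars, and the core subunits of the anaphase-promoting complex lie below the lines on the FPKM scale, which was not so at day 1 with TPM.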

How the data were processed

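Total RNA had been isolated with TRIzol and sequenced from libraries of the VAHTS Universal V6 kit, per the labels' protocols. Reads were aligned to GRCm39 and counted with tools that the submitters' processing notes name as FastQC 0.11.9, HISAT2 2.1.0 and HTSeq 0.11.2. No source used here names the annotation release or says whether strand was used. The authors deposited FPKM per transcript, which were summed here per gene.

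Genes with a mean of 1 FPKM or more, 13514 of 25468, were put on the log2(FPKM + 1) scale and tested with limma 3.58.1 (trend, R 4.3.3). All 9 libraries entered 1 fit with a common spread, and tests were two-sided, with Benjamini-Hochberg adjustment over all genes tested and a threshold of 0.05. An exact permutation test of 3 against 3 cannot go below 0.1. The scale understates the fold change of low genes, and 30 of the 52 genes had a sham mean under 1 FPKM. The labels do not say that libraries came from separate animals, so the spread may be technical in part. The procedure was checked on simulated data.

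The members and the other lists were chosen with earlier results of these data known. Named in full were, in each role, the gene with the highest mean and the one with the largest day 1 change, the tested genes not called at day 1, the largest and smallest day 7 rises, and the genes not tested; of each other list, up to 3 called genes with the largest day 1 changes. 1 gene that this rule names is not reported here. Hmmr was added after its values were seen, as was Gmnn. All 269 list entries matched, 3 by Ensembl gene ID. By GENCODE M21, 13 of the 52 genes overlap another gene in an exon, Ncapd2 and Top2a on the same strand, and without strand such reads cannot be told apart; Kif22, Ccnb1, Ccnb2 and Kif4 have a named pseudogene. Promoter windows are from RefSeq on GRCm38.p6, another build than the authors used, and positions count the start base as 1. Alternatives covered the pseudocount, the filter, scaling, the fit, the replicate block and each library left out.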

Additional observations from a re-analysis of the deposited data

Results flagged for a closer look

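Kif20a and Hmmr were the mitosis genes for which the rise over sham differed between the times by the test of day 7 against day 1, which is also the difference of the 2 rises because both use the same shams. These 2 calls were among 48 tested genes, while 2.14% of all genes tested fell. The log2 fold change at day 7 against day 1 was -0.87 for Kif20a and -1.01 for Hmmr. Ccnb1, at -0.91, and Prc1, at -0.89, had larger falls than Kif20a and did not pass (limma adjusted p = 0.0795 and 0.0513). In all, 47 of the 48 estimates were below 0. Kif20a and Hmmr were each lower in 3 of 3 day 7 libraries than in every day 1 library. This held for 27 of the 48 tested genes, against 14.1% of all genes tested. Kif20a and Hmmr are both genes of the spindle. Kif20a has an exon that overlaps Cdc23 on the other strand, and whether strand was used in counting is not known. Over the alternatives listed in the next section, the call of Kif20a was lost in 13 of 22 and that of Hmmr in 15 of 22, with the direction kept in each.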

How the results depend on the processing

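At day 1 all tested mitosis genes had a positive fold change under 23 of 23 alternatives, and at day 7 under 21 of 23. The 45 calls at day 1 became 42 to 46 with 1 library left out, 7 of the 8 genes left with a mean of 5 FPKM or more, and 17 without both libraries with airway markers, where 1.89% of all genes rose, against 13.4%. With 1 library left out, 7.16% to 14.5% of all genes rose at day 1, and 13.6% rose at a mean of 5 FPKM. The 38 calls at day 7 became 13 to 38 with 1 library left out, 16 without a filter, 7 of 8 at a mean of 5 FPKM, 23 with quantile normalization, 25 in a fit of only the 2 groups and 10 without both libraries with airway markers, where 7.98% of all genes rose, against 15.7%. With 1 library left out, 8.32% to 16.8% of all genes rose at day 7. The share was 6.32% without a filter, 14.9% at a mean of 5 FPKM, 13.6% with quantile normalization and 14.9% with only the 2 groups. The 2 calls between the days became 0 to 12 with 1 library left out, 0 with a pseudocount of 0.1, without a filter, at a mean of 5 FPKM, with TPM, in a fit of only the 2 groups, with the replicate block and without both libraries with airway markers, 1 with TPM without mitochondrially encoded genes, 14 with quantile normalization and 4 with array weights. With 1 library left out, 0.459% to 1.81% of all genes fell between the days. In the other fits with 0 calls, 0.192% to 2.3% fell. In the fits with 1, 14 and 4 calls, 1.89%, 2.73% and 3.45% fell, in that order. With the replicate number as a block, 44, 27 and 0 genes were called at day 1, at day 7 and between the days. In that fit, 10.7% of all genes rose at day 1, 12.7% rose at day 7 and 0.688% fell between the days. Deviations from the group means of same-numbered libraries correlated at -0.37 to 0.27, and of differently numbered ones at -0.53 to 0.40. Between day 7 and day 1 the ranges were 0.05 to 0.23 and -0.25 to 0.04. With 3 libraries a group, these values cannot decide whether the numbers pair the libraries. With TPM, 47 genes were called at each time and the median of all genes moved to 0.23 at day 1 and 0.30 at day 7, with 2445 genes higher and 601 lower at day 1, against 1817 and 1993 with FPKM, and 3809 and 527 at day 7, against 2127 and 2341; the medians of the mitosis genes were then 1.69 and 1.16. The fold change of Spc24 day 7 vs sham turned to -0.053 with quantile normalization, and ran from -0.057 (without day 7 replicate 2) to 0.20 (without day 7 replicate 1) with 1 library left out. Smc4 turned to 0.038 between the days with the most expressed transcript, and ran from -0.26 (without day 7 replicate 2) to 0.090 (without day 7 replicate 3) with 1 library left out. The causes were not tested, and depth is unknown.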
